A study of Mus musculus with 24 samples.

Results

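The genes described are 10 genes of glutamine, alanine and branched-chain amino acid metabolism in mouse skeletal muscle, namely Glul, Gpt, Gpt2, Got1, Got2, Bcat2, Bckdha, Bckdk, Slc38a2 and Slc7a5. They were chosen by symbol, and each matched 1 Ensembl identifier among the 55401 genes of the count table. All 10 passed the filter on low counts that left 12651 genes for testing. The questions were how their mRNA levels differed with age and with a burn, and whether the burn difference depended on age.

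Muscle is a main store of amino acids for the rest of the body. Branched-chain amino acids are broken down largely in muscle, where Bcat2, the mitochondrial branched-chain transaminase, passes on their amino group to form glutamate. The remaining keto acids are oxidised by the branched-chain keto acid dehydrogenase complex, of which Bckdha is a catalytic subunit and Bckdk the kinase that switches the complex off. The amino group then leaves the muscle as alanine, made by the alanine transaminases Gpt and Gpt2, or as glutamine, made by glutamine synthetase (Glul). Got1 and Got2, the cytosolic and mitochondrial aspartate transaminases, exchange amino groups between glutamate and aspartate and serve the malate-aspartate shuttle. Slc38a2 (SNAT2) takes up small neutral amino acids with sodium, and Slc7a5 (LAT1) exchanges glutamine for leucine and other large neutral amino acids. Severe burns are known for a loss of muscle protein and for a high release of alanine and glutamine from muscle.

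Poly-A RNA was sequenced from the gastrocnemius, a calf muscle, of male C57BL6 mice taken 24 h after the procedure, with 3 mice and 3 libraries in each of 4 groups. The young group was obtained at 4 weeks of age and the adult group at 10 weeks, and the procedure followed at 5 and 11 weeks. Burn mice had a full-thickness scald over 25% of the body surface together with saline and a resuscitation fluid. Sham mice had the same anaesthetic and analgesic with neither scald nor resuscitation, so a burn difference includes that of the fluid. Libraries held 4392605 to 5688512 counted reads, which limits the precision of the lowest genes. Summed over 7 skeletal muscle fibre markers, the level was 76749 to 158875 CPM (read counts scaled to a common library total) in the 12 libraries, whereas 4 liver markers summed to at most 1.01 CPM and the liver genes Apoa1 and Serpina1a were at 0 in every library.

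One library, young burn replicate 2, stood apart from the rest. Its mean correlation with the other libraries of its group was 0.941, against 0.960 to 0.982 in the other 11 libraries, and it lay outside the range of those 11 for 5 of the 10 genes and for 41.6% of all genes tested. It was above that range for Glul, Slc38a2 and Slc7a5 and below it for Gpt2 and Bckdk. The study left 1 young burn animal out of its clustered figure. The values below are therefore from 11 libraries without young burn replicate 2, with the values from all 12 beside them. Young burn means then rest on 2 mice.

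Compared per length, Glul and Got1 were the most abundant of the 10 genes and Slc7a5 was the least abundant. The median level over the 12 libraries, in normalized CPM per kilobase of exon, was 105 for Glul, 104 for Got1, 58.2 for Gpt2, 42.1 for Got2, 35.1 for Bckdk, 18.3 for Slc38a2, 17.7 for Bcat2, 9.19 for Gpt, 8.33 for Bckdha and 0.91 for Slc7a5. Glul and Got1 could not be ordered, since Glul was the higher in 4 of 12 libraries. Slc38a2 was above Bcat2 in 7 of 12 libraries and Gpt above Bckdha in 6 of 12, so these neighbours did not differ beyond their spread either. Every other neighbouring pair kept its order in at least 11 of the 12 libraries. The genes also differed in how far their own levels ranged, from a 1.36-fold range over the 11 libraries for Bckdk to a 10.2-fold range for Bckdha.

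**Figure D1:**
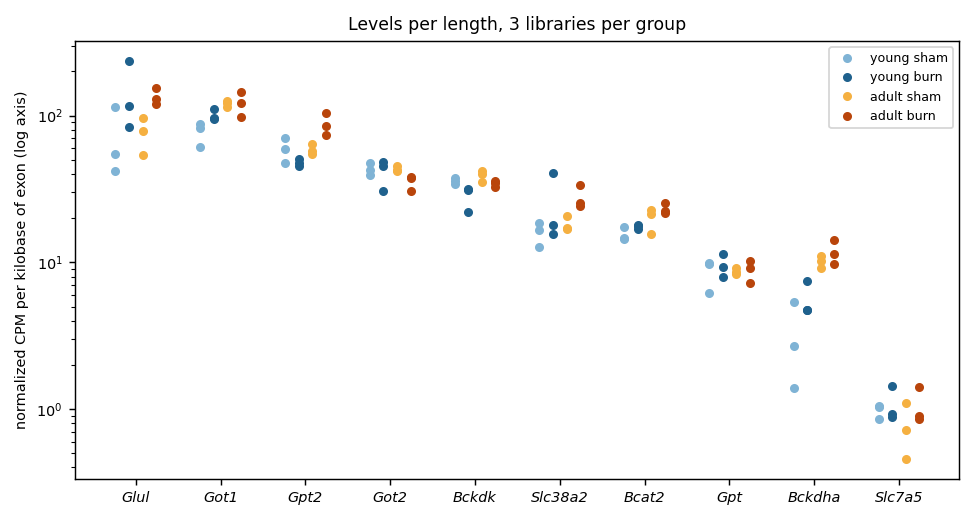
Level of each of the 10 genes in normalized CPM per kilobase of exon on a log axis, with 1 point per library and colours for the 4 groups, ordered by the median over all 12 libraries. Slc7a5 lies near 1, about a log unit below Bckdha, and the young sham points of Bckdha lie below its adult points.

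In young sham against adult sham mice, Got1 and Bckdha were lower in young mice and no gene of the 10 was higher, a call being an adjusted p under 0.05 in edgeR's quasi-likelihood test with Benjamini-Hochberg adjustment over all genes. These are 2 of 10 genes beside 11.8% of all genes tested, and 2 of 10 beside 3.76% with all 12 libraries. The count was 4 without young sham replicate 1, with Glul and Bcat2 added, and 1 without young sham replicate 3, where Got1 was lost. Groups did not overlap for the same 2 genes and for 31.1% of all genes. The median log2 fold change of the 10 genes was -0.13, against 0.001 for all genes.

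Between the burn groups, Gpt2, Bckdha and Slc38a2 were lower and Got2 was higher in young burn than in adult burn mice. These are 4 of 10 genes beside 20.7% of all genes tested. Gpt2 and Bckdha were called with all 12 libraries, 2 of 10 beside 10.8%. The young burn group did not overlap adult burn for 7 of 10 genes, beside 53.2% of all genes, and for 4 of 10 genes, beside 30.3%, with the 12 libraries. The median log2 fold change was -0.33 for the 10 genes and 0.008 for all genes. Without young burn replicate 1 the call remained for Gpt2, and without young burn replicate 3 for Gpt2 and Slc38a2, each time with a single young burn library that was assumed to vary like the other groups.

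With the filter on low counts, edgeR on the 11 libraries called none of the 10 genes in a burn comparison. In adult burn against adult sham mice 0 of 10 genes were called, beside 0.909% of all genes and 0.00806% with all 12 libraries, and 4 of 10 had an unadjusted p under 0.05, beside 13.7% of all genes. DESeq2 called Gpt2 and Slc38a2 there, 2 of the 9 genes it gave an adjusted p, beside 2.33% of all genes. With all 12 libraries DESeq2 called 0 of 10, beside 0.0245% of all genes. Adult burn and adult sham did not overlap for 4 genes (Glul, Gpt2 and Slc38a2 above, Got2 below), beside 19.9% of all genes. In young burn against young sham mice 0 of 10 genes were called by edgeR, beside 0.664% of all genes and 0.0645% with all 12 libraries. DESeq2 called 0 of 9 there, beside 2.12% of all genes. In edgeR 1 gene had an unadjusted p under 0.05, beside 16% of all genes. Got1 lay above and Bckdk below young sham without overlap, 2 of 10 genes beside 32.4%. With no filter on low counts, edgeR called Glul, Gpt2 and Slc38a2 in adult burn, beside 2% of the 28070 genes fitted, and Glul in young burn, beside 2.11%. The adult and young burn comparisons do not share libraries, but each shares its burn or sham group with an age comparison.

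A burn term across both ages, tested over a model with age alone, also called 0 of 10 genes in both tools. The share of all genes called was 3.29% in DESeq2, 2.15% in edgeR and 0.717% in edgeR with all 12 libraries. Glul, Slc38a2 and Bckdk had an unadjusted p under 0.05 there, 3 of 10 genes beside 16.6%. The burn by age interaction is the burn difference in young mice minus that in adult mice. It called 0 of 10 genes in edgeR, beside 0.0949% of all genes and 0% with all 12 libraries, where 3 genes and 11.1% of all genes had an unadjusted p under 0.05. DESeq2 called Gpt2 in the interaction, beside 0.73% of all genes. Without the filter, edgeR called Glul and Slc38a2 in the burn term, beside 2.85% of all genes, and Gpt2 in the interaction, beside 0.859%.

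**Figure D2:**
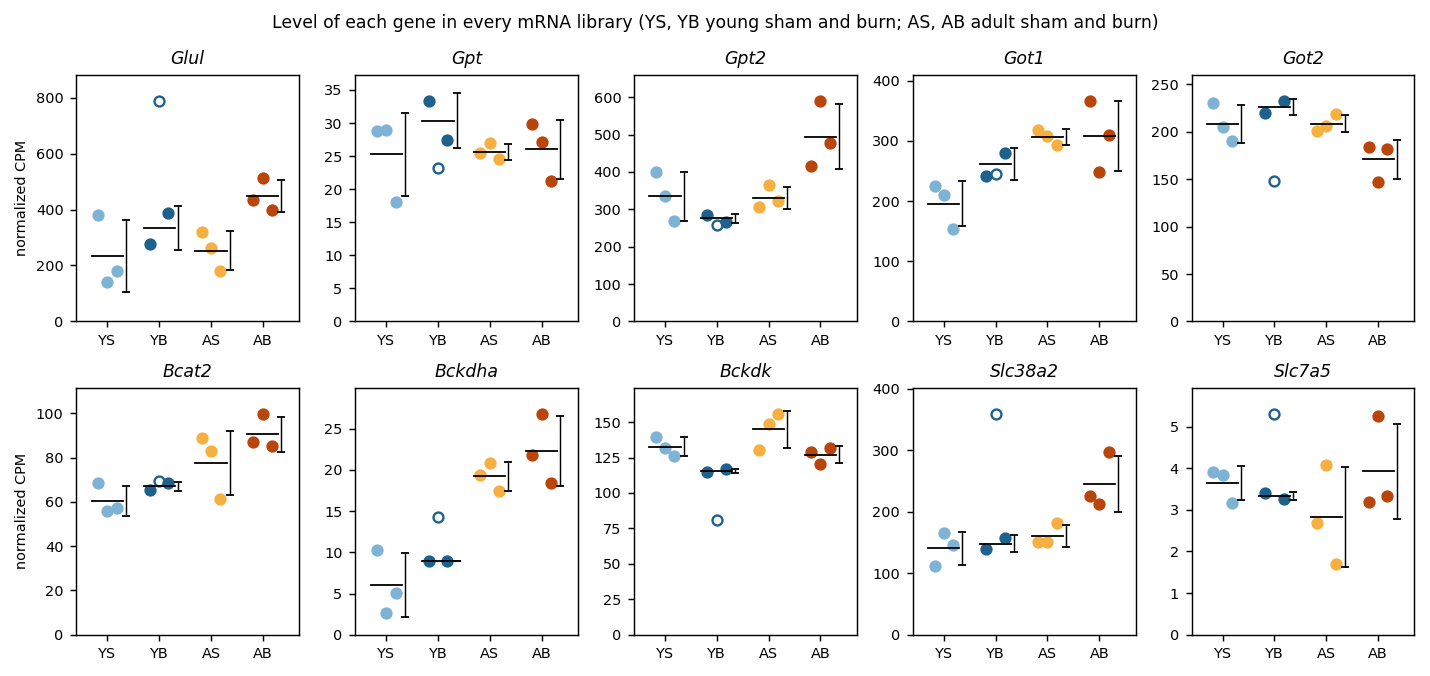
Normalized CPM of each gene in every library, for sham and burn mice of the young (YS, YB) and adult (AS, AB) groups, with lines for the group mean and bars for its SD. The open point is young burn replicate 2, which is outside the mean and SD and lies highest of all 12 libraries for Glul and Slc38a2.

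**Figure D3:**
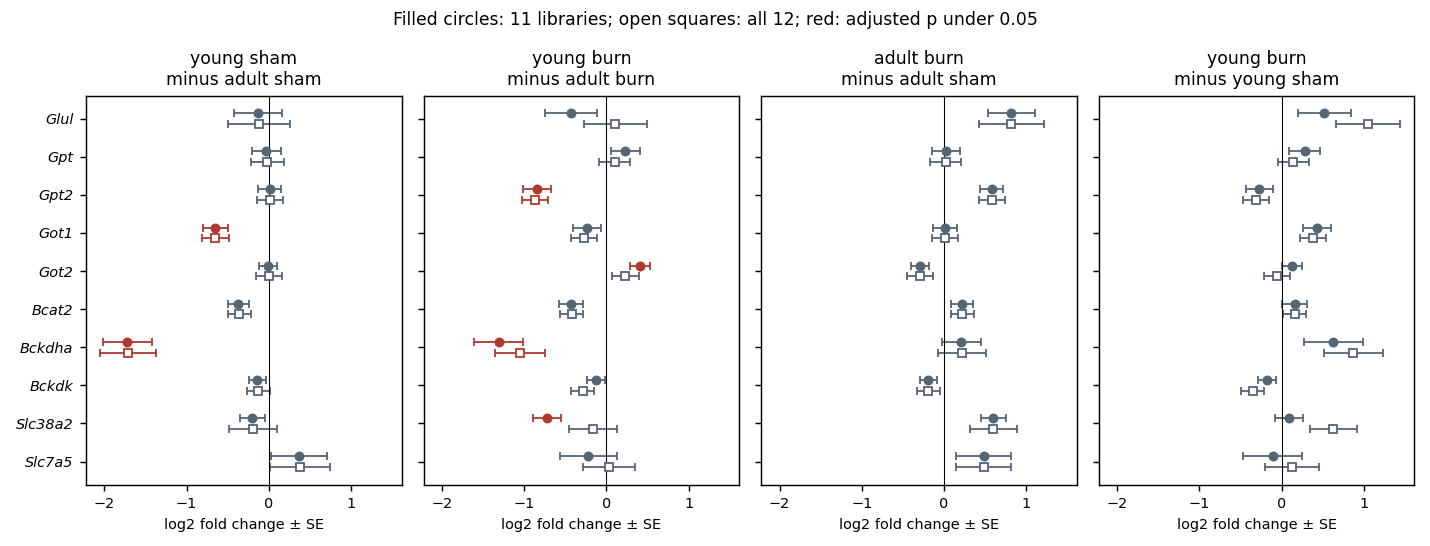
Log2 fold change with its SE from edgeR for each gene in 4 comparisons, from 11 libraries (filled circles) and all 12 (open squares), in red where the adjusted p is under 0.05. Got1 and Bckdha are red in the sham comparison, and Gpt2 and Bckdha are red in both settings between the burn groups, where Got2 and Slc38a2 are red with 11 libraries alone.

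Glul, the enzyme that makes glutamine from glutamate and ammonia, was at 433, 511 and 400.0 CPM in the adult burn libraries and at 319, 262 and 179.9 CPM in adult sham. In young sham it was at 379.9, 139.5 and 182 CPM, and in young burn at 277 and 388 CPM with 788 CPM in replicate 2. Every adult burn library was thus above every adult sham library, while young sham replicate 1 lay within the range of young burn. The log2 fold change in adult burn was 0.82 with an SE of 0.29 and an edgeR adjusted p of 0.205. In young burn it was 0.52 with an SE of 0.32 (adjusted p = 0.446), and 1.05 with all 12 libraries (adjusted p = 0.168). The burn term was 0.69 with an SE of 0.21 (adjusted p = 0.11), and 0.94 with all 12 libraries (adjusted p = 0.101). Glul had the smallest edgeR p of the 10 genes in the burn term. In DESeq2 on the 11 libraries the unadjusted p of Slc38a2 (0.00588) and Bckdk (0.0112) lay below that of Glul (0.0154). The edgeR values of Glul moved across the threshold with the filter and with young sham replicate 1. With no filter on low counts the edgeR adjusted p was 1.13e-09 in adult burn, 0.00588 in young burn and 7.32e-11 in the burn term. The estimates stayed at 0.82, 0.52 and 0.69, and their SEs fell to 0.12, 0.13 and 0.09. In adult burn Gpt2, Got1, Got2, Bckdk and Slc38a2 had that same SE of 0.12 with no filter. With the filter the SE was 0.29 for Glul and 0.10 for Bckdk, so the unfiltered SE did not separate these genes by their spread. Between the burn groups the adjusted p of Glul was 0.00676 with no filter, against 0.356 with the filter, where the log2 fold change was -0.43. DESeq2 on the 11 libraries gave larger SEs, 0.41 in adult burn, 0.46 in young burn and 0.28 in the burn term. Its adjusted p was 0.418, 0.725 and 0.198 in the same order. Without young sham replicate 1 the burn term was 0.92 (adjusted p = 0.00664), the young burn difference 1.07 (adjusted p = 0.038) and the difference of young from adult sham -0.67 (adjusted p = 0.0494), which with it was -0.13 (adjusted p = 0.815). The interaction was -0.30 with an SE of 0.43, and turned to 0.23 with all 12 libraries and to 0.25 without young sham replicate 1. The gene lies on chromosome 1 of GRCm38 at chr1:153899944-153909723 on the plus strand, and part of its exons overlaps Teddm2 on the other strand. Teddm2 had 11 to 27 counts per library against at least 689 for Glul.

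Gpt2, the mitochondrial alanine transaminase, had the smallest p of the 10 genes between the burn groups. Its level was 416, 589.8 and 478 CPM in adult burn and 307, 364 and 322 CPM in adult sham. In young sham it was 399, 335 and 269 CPM, and in young burn 284 and 267 CPM with 258 CPM in replicate 2. Adult burn lay above all other groups without overlap, and 1 young sham library (399 CPM) lay above both adult sham and young burn. Young burn was 1.79-fold below adult burn (log2 fold change -0.84, SE 0.17, edgeR adjusted p = 0.00343), and 1.83-fold below it with all 12 libraries (adjusted p = 0.00658). The sham group means were 334 ± 64.9 CPM in young and 331 ± 29.8 CPM in adult mice (SD, n = 3 each), a log2 difference of 0.01 with an SE of 0.14.

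In adult mice, the fold change of Gpt2 with burn was 1.49 (log2 fold change 0.58, SE 0.14), with an adjusted p of 0.0756 in edgeR and 0.0106 in DESeq2. The estimate from all 12 libraries was again 0.58 and the adjusted p was 0.555 in edgeR and 0.512 in DESeq2. Without young sham replicate 1 the edgeR adjusted p was 0.0444 and without adult burn replicate 1 it was 0.0398. It was 9.52e-05 with no filter on low counts. In young mice the burn difference had the other sign, -0.27 with an SE of 0.16 (edgeR adjusted p = 0.448), and was -0.31 with all 12 libraries. The interaction was -0.84 with an SE of 0.22 and an unadjusted p of 0.00152, the smallest of the 10 genes. Its adjusted p was 0.24 in edgeR and 0.0294 in DESeq2, and with all 12 libraries 0.683 and 0.729. With no filter on low counts it was 4.34e-04 in edgeR. The unadjusted p in edgeR was 0.00168 with all 12 libraries.

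Gpt, the cytosolic alanine transaminase that is best known from liver and blood tests, ranged from 18.04 to 33.3 CPM over all 12 libraries with overlap in each of the 4 group comparisons. Its log2 fold changes were within 0.28 of 0 in all 6 comparisons of the 11 libraries, and the smallest edgeR adjusted p was 0.395, in young burn against adult burn. The ratio of Gpt2 to Gpt within a library, from levels per kilobase, was 7.27 to 11.8 in adult burn, 6.29 to 7.04 in adult sham, 6.03 to 7.78 in young sham and 4.44 to 5.80 in young burn. The mitochondrial form was hence the more abundant in every library, with the lowest ratios in young burn. Of the adult burn libraries, 2 had the highest ratios and 1 (7.27) lay within the young sham range.

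**Figure D4:**
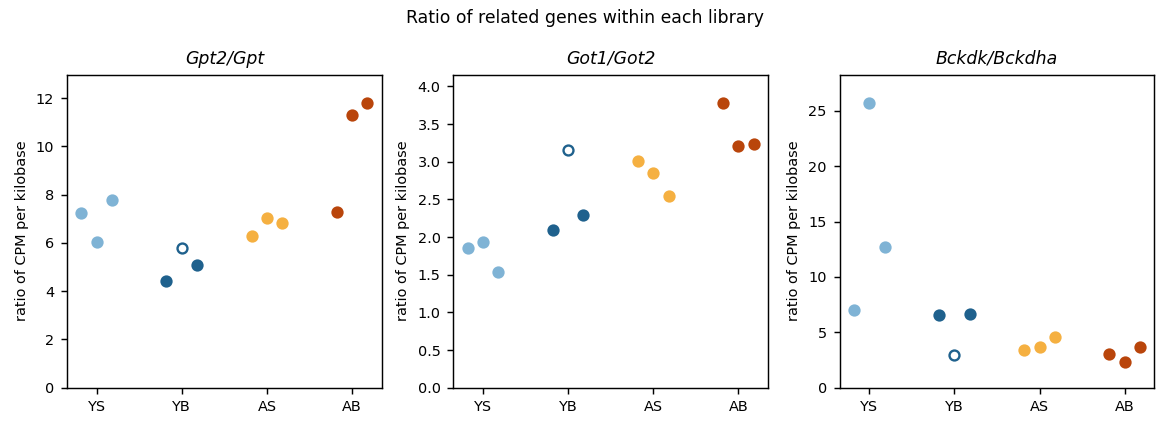
Ratio of related genes within each library, from normalized CPM per kilobase of exon, for sham and burn mice of the young (YS, YB) and adult (AS, AB) groups, with young burn replicate 2 as an open point. The ratio of Gpt2 to Gpt is lowest in young burn and is highest in 2 of the 3 adult burn libraries, that of Got1 to Got2 is lowest in young sham, and that of Bckdk to Bckdha is highest there.

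The bases before the start sites of Gpt2 and Slc38a2 are shown because edgeR called both lower in young burn than in adult burn and DESeq2 called both in adult burn, and those of Got1 because it holds a match to the composite element TGATGCAA bound by C/EBP and ATF4, a regulator that responds to amino acid shortage. Each run is the 250 bases before the RefSeq start in GRCm38.p6, 5′ to 3′ on the gene's strand, with matches to TGATGCAA and to CACCC, the core bound by Krüppel-like factors, in capitals on either strand, where a match on the other strand reads TTGCATCA or GGGTG. The positions are chr8:85492326-85492575 on the plus strand for Gpt2, chr15:96699729-96699978 on the minus strand for Slc38a2 and chr19:43524606-43524855 on the minus strand for Got1.
Gpt2: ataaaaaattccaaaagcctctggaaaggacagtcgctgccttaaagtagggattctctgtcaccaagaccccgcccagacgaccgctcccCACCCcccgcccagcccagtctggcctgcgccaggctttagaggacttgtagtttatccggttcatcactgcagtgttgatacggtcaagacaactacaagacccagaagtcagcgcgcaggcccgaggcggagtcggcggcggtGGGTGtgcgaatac
Slc38a2: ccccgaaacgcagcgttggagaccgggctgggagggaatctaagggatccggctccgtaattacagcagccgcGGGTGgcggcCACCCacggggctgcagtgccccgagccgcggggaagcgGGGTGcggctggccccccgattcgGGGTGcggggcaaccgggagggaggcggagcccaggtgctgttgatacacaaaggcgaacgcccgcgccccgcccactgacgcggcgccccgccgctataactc
Got1: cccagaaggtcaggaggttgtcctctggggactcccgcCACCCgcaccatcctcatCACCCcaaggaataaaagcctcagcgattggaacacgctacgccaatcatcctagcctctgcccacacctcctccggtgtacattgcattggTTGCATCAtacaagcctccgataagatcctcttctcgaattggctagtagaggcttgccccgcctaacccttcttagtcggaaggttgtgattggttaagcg
RefSeq gave such windows for 8 of the 10 genes, and none for Gpt and Slc7a5. TGATGCAA was found in Got1 alone, 102 bases before the start, and is held by 0.79% of 32851 windows of this length. CACCC was found in 6 of the 8 genes and in 52.0% of all windows, with 4 matches in Slc38a2 and 2 each in Gpt2 and Got1. The palindromic glucocorticoid response element (0.39% of windows) and the E box CACGTG (6.02%) were in none of the 8. The motifs do not overlap one another in these runs. Such matches are a description of the letters in these windows.

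Got1 was lower in young than in adult muscle without injury. It was at 224, 209 and 154 CPM in young sham against 319, 309 and 293 CPM in adult sham, so that the groups did not overlap. The difference was 1.57-fold (log2 fold change -0.65, SE 0.15, edgeR adjusted p = 0.0125, and 0.0448 with all 12 libraries). It missed the threshold without young sham replicate 3, the lowest library, at -0.50 with an adjusted p of 0.0622. In young burn Got1 was at 242 and 280.2 CPM, with 245 CPM in replicate 2, and each of these was above every young sham library. The burn difference in young mice was 0.43 with an SE of 0.17 (edgeR adjusted p = 0.228), and 0.38 with all 12 libraries (adjusted p = 0.211). Adult burn ranged from 249 to 366 CPM around the adult sham values, with a log2 fold change of 0.01 and an SE of 0.15. Between the burn groups the log2 difference was -0.24 with an SE of 0.17 (adjusted p = 0.329), and the interaction was 0.42 with an SE of 0.22 (adjusted p = 0.5). Whether the age difference of Got1 changed with the burn was therefore not resolved with these mice.

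Got2, the mitochondrial form, was at 201, 206 and 219 CPM in adult sham and at 184, 147 and 182 CPM in adult burn. In young sham it was at 229.9, 205 and 191 CPM, and in young burn at 220.2 and 232 CPM with 148 CPM in replicate 2. Adult burn was below adult sham in every library, with a log2 fold change of -0.29 and an SE of 0.11 (edgeR adjusted p = 0.247). Young burn was 1.33-fold above adult burn without replicate 2 (log2 fold change 0.41, SE 0.12, edgeR adjusted p = 0.0278), and 0.23 on the log2 scale above it with that library (adjusted p = 0.383). The call of Got2 also rested on other single libraries, since the adjusted p was 0.102 without young burn replicate 1, 0.167 without young burn replicate 3 and 0.102 without adult burn replicate 2. It was 0.0546 with no filter on low counts. The interaction was 0.42 with an SE of 0.16 (adjusted p = 0.376). The ratio of Got1 to Got2 per kilobase was 1.54 to 1.94 in young sham, 2.09 to 3.15 in young burn, 2.54 to 3.01 in adult sham and 3.21 to 3.78 in adult burn, so the cytosolic form was the more abundant throughout and the young sham ratios lay below those of all other groups.

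Bckdha had the largest age difference of the 10 genes. It was at 10.2, 2.63 and 5.12 CPM in young sham and at 19.4, 20.9 and 17.4 CPM in adult sham. In young burn it was at 8.96 and 8.99 CPM with 14.2 CPM in replicate 2, and in adult burn at 21.8, 26.8 and 18.4 CPM. Every young library, burned or not, was below every adult library. Young sham was 3.29-fold below adult sham (log2 fold change -1.72, SE 0.30, edgeR adjusted p = 0.00254, and 0.0167 with all 12 libraries). The size of this difference depended on young sham replicate 1, the highest young sham library, without which it was 5.10-fold (-2.35, adjusted p = 1.24e-04), and it was 2.51-fold without replicate 2, the lowest (-1.33, adjusted p = 0.00862). Young burn was 2.48-fold below adult burn (log2 fold change -1.31, SE 0.30, adjusted p = 0.00784), and 2.07-fold below it with all 12 libraries (adjusted p = 0.0421). The second of these missed the threshold without young burn replicate 1 (adjusted p = 0.0676) or replicate 3 (adjusted p = 0.0581), at -1.31 in both cases. The burn difference was 0.21 with an SE of 0.24 in adult mice and 0.63 with an SE of 0.36 in young mice (edgeR adjusted p = 0.758 and 0.409), and 0.87 in young mice with all 12 libraries (adjusted p = 0.199).

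Bckdha lies on chromosome 7 of GRCm38 at chr7:25629946-25658981 on the minus strand. The counts behind it were low, at 13 to 148 per library. Its exons overlap B3gnt8 on the other strand, which had 9 to 22 counts per library, and since the sources used here do not give the strand that was counted, reads of this stretch cannot be told apart. In bulk tissue, fewer cells of a type and less RNA per cell also cannot be told apart. The summed level of 5 fibroblast markers differed between the same groups, at 5826 to 6177 CPM in young sham and 2394 to 3194 CPM in adult sham, with 2 of the 5 called higher in young sham. The 7 muscle fibre markers summed to 115588 to 158875 CPM in young sham and 98193 to 108814 CPM in adult sham. Of these 7, 1 was called higher and 1 lower in young sham. Of 4 Schwann cell markers tested, 3 were called higher in young sham, beside 5.27% of all genes called higher there. The 6 adipocyte markers had a median log2 fold change of -0.92 between the sham groups, with 1 called higher in young sham, and of -1.02 between the burn groups, with 0 called by edgeR, while their summed level was 837 to 1201 CPM in young sham and 550.0 to 1076 CPM in adult sham. The part of these markers in the age differences of Got1 and Bckdha was not tested.

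Bcat2, the transaminase that opens branched-chain breakdown, was at 68.4, 56.1 and 57.3 CPM in young sham and at 88.7, 82.9 and 61.3 CPM in adult sham, with 1 adult sham library inside the young range. It was at 65.6 and 68.5 CPM in young burn, with 69.6 CPM in replicate 2, and at 86.9, 99.6 and 85.2 CPM in adult burn, without overlap. The log2 difference was -0.37 with an SE of 0.13 between the sham groups (edgeR adjusted p = 0.0882) and -0.43 with an SE of 0.15 between the burn groups (adjusted p = 0.052). Both lay near the threshold and moved across it with single libraries. The sham difference had an adjusted p of 0.045 without young sham replicate 1 and 0.018 without adult sham replicate 3. The difference between the burn groups had 0.0408 when young sham replicate 1 was left out, 0.0467 with adult sham replicate 1 left out and 0.0237 in the absence of adult sham replicate 3. The adjusted p from all 12 libraries was 0.179 and 0.0765, respectively, and with no filter on low counts it was 0.0312 and 0.0133.

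Bckdk, the kinase that inhibits the dehydrogenase complex, varied least over the 11 libraries. It ranged from 126 to 139.6 CPM in young sham, from 131 to 156 CPM in adult sham and from 121 to 132 CPM in adult burn. In young burn it was at 115 and 117 CPM, with 81.1 CPM in replicate 2, below all young sham and adult burn libraries. The burn difference was -0.18 with an SE of 0.11 in young mice and -0.19 with an SE of 0.10 in adult mice (edgeR adjusted p = 0.428 and 0.398). The burn term was -0.19 with an SE of 0.07 (adjusted p = 0.199), and -0.27 with all 12 libraries (adjusted p = 0.178). The ratio of Bckdk to Bckdha per kilobase was 7.01 to 25.7 in young sham, 2.93 to 6.67 in young burn, 3.45 to 4.59 in adult sham and 2.32 to 3.68 in adult burn. The 3 young sham libraries had the highest ratios of all, while the Bckdk levels of young and adult sham overlapped.

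Slc38a2 was at 225, 213 and 297 CPM in adult burn and at 150.1, 151 and 182 CPM in adult sham, without overlap. In young sham it was at 112, 165 and 146 CPM, and in young burn at 139 and 158 CPM with 358 CPM in replicate 2, the highest value of the 12 libraries. The adult burn difference was 1.52-fold (log2 fold change 0.60, SE 0.15), with an adjusted p of 0.0741 in edgeR and 0.0106 in DESeq2. The same estimate of 0.60 had with all 12 libraries an SE of 0.29 and an edgeR adjusted p of 0.72. DESeq2 with all 12 libraries gave 0.61 with an SE of 0.30 and did not call the gene. The edgeR adjusted p was 0.0427 without young sham replicate 1 and 7.89e-05 with no filter on low counts. The burn term was 0.38 with an SE of 0.13 (adjusted p = 0.144, and 0.00486 with no filter). In young mice the burn difference was 0.09 with an SE of 0.17 (edgeR adjusted p = 0.852), and 0.63 with all 12 libraries (adjusted p = 0.242). Young burn was 1.65-fold below adult burn (log2 fold change -0.72, SE 0.17, edgeR adjusted p = 0.00953), but the difference was -0.16 with all 12 libraries (adjusted p = 0.749) and -0.63 without young burn replicate 1 (adjusted p = 0.103). The interaction was -0.51 with an SE of 0.23 (adjusted p = 0.424), and 0.03 with all 12 libraries. Any statement on Slc38a2 in young burn mice thus turns on the single library that stood apart.

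Slc7a5, the exchanger for large neutral amino acids, had the lowest counts, at 8 to 29 reads or 1.70 to 5.30 CPM per library. The groups overlapped in each of the 4 group comparisons. Its log2 fold changes ranged from -0.59 to 0.48 over the 6 comparisons with SEs of 0.25 to 0.49, so a difference of moderate size was not detectable at this depth.

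Markers of other cells and fibre types moved between the burn groups too. Of the markers tested, 3 of 7 slow fibre, 3 of 6 macrophage and 3 of 5 endothelium genes were called higher in young burn than in adult burn. So were 3 of 5 fibroblast and 3 of 4 Schwann cell genes, beside 11.2% of all genes called higher. Called higher were 0 of 7 muscle fibre (1 was lower), 0 of 6 adipocyte, 0 of 5 red blood cell and 0 of 2 neutrophil genes. In adult burn the 7 slow fibre markers summed to 645 to 759 CPM against 729 to 1848 CPM in adult sham, with 2 of 7 called lower. Of 5 endothelium markers, 1 was called lower there too, beside 0.348% of all genes called lower. Neutrophil markers summed to 6.87 to 14.8 CPM in adult burn against 2.12 to 4.96 CPM in adult sham, with Ly6g at 0 in every library. Macrophage markers summed to 248 to 343 CPM against 207 to 252 CPM. Of the 2 neutrophil and 6 macrophage markers tested, edgeR called 0 in adult burn against adult sham. In young burn against young sham, neutrophil markers summed to 9.40 to 27.4 CPM against 1.82 to 4.14 CPM, with 1 of 2 tested called higher. Macrophage markers summed to 326 to 575 CPM against 202 to 278 CPM, with 1 of 6 called higher. Of all genes, 0.458% were called higher there. The muscle fibre markers summed to 76749 to 101443 CPM in young burn and 115588 to 158875 CPM in young sham, without overlap. EdgeR called 0 of these 7 markers there, and 21.7% of all genes had no overlap between these groups with all 12 libraries. The part of all these cell and fibre markers in the values of the 10 genes was not tested. In young burn replicate 2 the muscle fibre markers had their lowest sum, 76749 CPM, and the slow fibre markers theirs, 490 CPM.

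Other genes of the same pathways were called at shares below and above those of all genes. Between the sham groups, beside 11.8% of all genes, the calls were 2 of 23 for branched-chain catabolism, 0 of 21 for glutamate, glutamine and aspartate handling, 1 of 15 for other transporters and 1 of 12 for regulators. Between the burn groups, beside 20.7%, they were 0 of 23, 3 of 21, 3 of 15 and 4 of 12 in the same order. In adult burn against adult sham, beside 0.909%, they were 0 of 23, 1 of 21, 1 of 15 and 1 of 12, and in young burn against young sham 0 in every list by edgeR, with 2, 7, 1 and 2 genes at an unadjusted p under 0.05, where DESeq2 called 1 gene of the glutamate list (Ampd1, looked up after the count was seen). All genes called by edgeR in these comparisons or in the burn term are named below. Of 23 further genes of branched-chain catabolism, all tested, Acat1, a thiolase of the isoleucine route, was lower in young sham than in adult sham (log2 fold change -0.55, edgeR adjusted p = 0.00313). Bcat1, the cytosolic transaminase, was higher there (2.59, adjusted p = 0.017), from a mean of 0.424 CPM in adult sham and 2.72 CPM in young sham. By edgeR none of the 23 was called in adult burn or in young burn against its sham group, where 2 had an unadjusted p under 0.05 in each, and DESeq2 called none. None was called by edgeR between the burn groups either, where 5 had an unadjusted p under 0.05 and Acat1 was the 1 call of DESeq2. Hibch, which acts on valine breakdown, was called higher in the burn term (0.30, adjusted p = 0.0377). The median log2 fold change of the list was -0.11 in both age comparisons, 5 and 6 genes being above 0. From all 12 libraries the edgeR adjusted p was 0.0523 for Acat1, 0.0931 for Bcat1 and 0.0962 for Hibch.

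Of 23 genes that handle glutamate, glutamine and aspartate, 21 were tested, and none was called between the sham groups by edgeR or DESeq2, with 6 at an unadjusted p under 0.05 in either tool. Both subunits of glutamate-cysteine ligase, which uses glutamate to make glutathione, were among those called. Gclm rose in adult burn (log2 fold change 0.86, edgeR adjusted p = 0.0204) and in the burn term (0.74, adjusted p = 0.00625), and Gclc was lower in young burn than in adult burn (-0.97, adjusted p = 0.00323). Adssl1, the muscle adenylosuccinate synthase that consumes aspartate in the purine nucleotide cycle, was lower in young burn than in adult burn (-0.40, adjusted p = 0.0323), and Ampd1, the AMP deaminase of that cycle, fell in the burn term (-0.44, adjusted p = 0.0343). Psat1, a serine synthesis enzyme that uses glutamate, was higher in young burn than in adult burn (1.00, adjusted p = 0.0372). DESeq2 on the 11 libraries called 2 genes of this list between the burn groups, where edgeR called 3. With all 12 libraries Gclc and Adssl1 kept an adjusted p under the threshold between the burn groups (0.0472 and 0.0373), while Gclm had 0.725 in adult burn and 0.0803 in the burn term, Ampd1 0.207 and Psat1 0.0831.

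Among 15 other amino acid transporters, all tested, Slc38a3, a glutamine transporter, fell in adult burn (log2 fold change -0.68, edgeR adjusted p = 0.0443) and was higher in young burn than in adult burn (0.74, adjusted p = 0.00587). Slc38a9, a lysosomal arginine sensor, was higher in young mice in both age comparisons by edgeR (0.55 and 0.59, adjusted p = 0.0229 and 0.0158). DESeq2 on the 11 libraries called 0 of the 15 transporters between the sham groups and 3 between the burn groups. There edgeR called 1 and 3. Slc43a1, a carrier of large neutral amino acids, was lower in young burn than in adult burn (-1.03, adjusted p = 0.0263). Slc7a2, a transporter of cationic amino acids, rose in the burn term (0.82, adjusted p = 0.0128), with group means of 62.1 and 104 CPM in young sham and burn and 84.4 and 154 CPM in adult sham and burn. No transporter was called in young burn against young sham by edgeR or DESeq2, and 1 had an unadjusted p under 0.05 in either tool. In the fit of all 12 libraries Slc38a9 (0.0412) and Slc43a1 (0.0255) remained between the burn groups, and Slc38a3 had an adjusted p of 0.603 in adult burn and 0.171 between the burn groups, Slc7a2 0.0561 in the burn term and Slc38a9 0.0591 between the sham groups.

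Of 12 regulators of amino acid genes, all tested, Atf4 had the clearest difference. It was lower in young burn than in adult burn (log2 fold change -0.91, SE 0.11, edgeR adjusted p = 2.11e-04) and rose in adult burn against adult sham (0.44, SE 0.10, adjusted p = 0.0485). Its group means were 244 CPM in young sham, 218 CPM in young burn, 301 CPM in adult sham and 409.7 CPM in adult burn. Chac1, a target of Atf4 that degrades glutathione (-2.40, adjusted p = 0.0448), and Fkbp5, a glucocorticoid-induced gene (-1.31, adjusted p = 0.0449), were also lower in young burn than in adult burn, whereas Nr3c1, the glucocorticoid receptor, was higher (0.31, adjusted p = 0.0413). Esrra, a regulator of mitochondrial genes, was lower in young sham than in adult sham (-0.42, adjusted p = 0.0351). DESeq2 on the 11 libraries called 1 of the 12 regulators between the burn groups, where edgeR called 4. Between the sham groups it called 2, where edgeR called 1. With all 12 libraries Chac1 was called between the burn groups (-2.80, adjusted p = 0.0465), and Atf4 was not (-0.45, adjusted p = 0.218), nor in adult burn (adjusted p = 0.742), nor were Fkbp5 (0.118), Nr3c1 (0.78) and Esrra (0.443).

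The genes whose levels ran closest to Glul over the 11 libraries, by Pearson's r of log2 CPM, were Il6ra (0.97), Errfi1 (0.95), Sidt2 (0.95), Tango2 (0.94) and Por (0.94). Those closest to Bckdha, the gene with the smallest p between the sham groups, were Sympk, Hdlbp, Tmem170b and Nfe2l1 (0.98 each) and Acacb (0.97). These are the highest of all tested genes, the libraries share the 4 groups, and the values are given as a description.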

How the data were processed

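The deposited mRNA values are raw counts per gene, 55401 genes in 12 libraries, without normalization or a filter. The authors made poly-A libraries with the NEBNext Ultra II kit, read them in pairs on a NextSeq 550, aligned them to GRCm38 with STAR and counted genes of Gencode M25 (which strand was counted is not stated in the sources used here). The submitters' processing notes name bcl2fastq 2.20, STAR 2.7.5c and featureCounts 2.0.1. The miRNA counts were not used here. Symbols, positions and exon lengths came from Gencode M21, which matched 55141 genes.

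In R 4.3.3, edgeR 4.0.16 with TMM scaling and filterByExpr (minimum count 10, minimum total 15) fitted 4 group means by quasi-likelihood on 11 libraries without young burn replicate 2, leaving 12651 genes. All 12 libraries (12408 genes), DESeq2 1.42.0, other scalings, no filter, a replicate block, fits of the compared groups alone and leaving out each library were alternatives. Two-sided p-values were adjusted by Benjamini-Hochberg across every gene tested, and a call is an adjusted p under 0.05. SEs of edgeR were taken as the size of the log2 fold change over the root of F, and those of DESeq2 are the ones its own fit reports. Levels are TMM-scaled CPM from the 12 libraries. The labels number 3 mice per group as separate animals. Total counts ran from 4392605 to 5688512 per library. No molecular identifiers were used.

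The genes and lists were chosen with earlier results of these data known. The text names all 10 genes and up to 4 called genes with the smallest p per list and comparison. It also names the 5 genes closest to the member with the smallest edgeR p in the burn term and between the sham groups. For this likeness, log2 CPM had a prior count of 2. Figures were drawn with matplotlib 3.10.9.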

Additional observations from a re-analysis of the deposited data

Results flagged for a closer look

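The burn effect on Gpt2 differed between the ages by DESeq2 on 11 libraries. The effect in young mice minus that in adult mice was -0.86 on the log2 scale, with an SE of 0.23 and an adjusted p of 0.0294. DESeq2 called 0.73% of all genes in this interaction. The interaction of Gpt2 had an adjusted p of 0.24 in edgeR, where it was -0.84. With all 12 libraries the adjusted p was 0.683 in edgeR and 0.729 in DESeq2. Adult burn lay above adult sham in 3 of 3 libraries, and 19.9% of all genes had no overlap between these groups. Young burn overlapped young sham, with a log2 fold change of -0.27 in edgeR (adjusted p = 0.448).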

How the results depend on the processing

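The log2 fold changes of the 10 genes in the 6 comparisons were set against those under other settings and with 1 further library left out. Under other settings, 413 kept their direction and their side of the threshold, 25 turned sign, 16 gained a call and 6 lost one. With 1 further library left out, 613 kept both, 29 turned sign, 11 gained a call and 7 lost one. Where DESeq2 gave no adjusted p, the direction alone was compared. The cause of the changes below was not tested.

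Counts of all genes called moved with the libraries used. With all 12 libraries they were 467 for young sham against adult sham (1488 with 11), 1343 between the burn groups (2623), 1 in adult burn (115), 8 in young burn (84), 89 for the burn term (272) and 0 for the interaction (12), and 2 of the 10 genes were called between the burn groups in place of 4. DESeq2 with all 12 libraries called 653, 1351, 7, 440 and 1 genes for the sham groups, the burn groups, adult burn, young burn and the interaction, and 2 of the 10 between the burn groups. DESeq2 with 11 libraries called 210 genes and 2 of the 10 in adult burn, 191 genes in young burn, and 46 genes and 1 of the 10 in the interaction. Scaling by library size alone gave 67 genes in adult burn, 353 in young burn and 19 in the interaction. The median log2 value of all genes was then -0.13 between the sham groups, 0.16 in young burn and 0.18 in the interaction. With TMM scaling it was 0.00093, 0.0095 and 0.01 in the same order. With no filter on low counts, 562 genes and 3 of the 10 were called in adult burn, 593 and 1 in young burn, 799 and 2 in the burn term, and 241 and 1 in the interaction. Fits of the compared groups alone called 49 genes in young burn.

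Same-numbered libraries of different groups deviated together in few pairs (15 pairs, r from -0.17 to 0.13, 2 over 0.1) and not more than others (30 pairs, -0.181 to 0.203). Deviations from the mean of so few libraries per group depend on one another. These values therefore cannot exclude a link between libraries of the same number. With the replicate block, 72 genes were called in adult burn, 7 in young burn, 172 in the burn term and 4 in the interaction. Between the burn groups the log2 value of Got2 was then 0.37 (adjusted p = 0.0708 by edgeR), and no other call among the 10 genes changed.

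Leaving out 1 library of the 11 gave 564 to 1772 genes and 1 to 4 of the 10 called between the sham groups, 958 to 2837 and 1 to 5 between the burn groups, 25 to 161 and 0 to 2 in adult burn, 2 to 203 and 0 to 1 in young burn, 75 to 394 and 0 to 1 for the burn term, and 1 to 31 and 0 to 0 for the interaction. Log2 fold changes that turned sign then ranged, between the sham groups, from -0.67 to 0.14 for Glul, -0.14 to 0.17 for Gpt, -0.14 to 0.15 for Gpt2 and -0.09 to 0.06 for Got2. They ranged from -0.35 to 0.04 for Slc7a5 between the burn groups, from -0.09 to 0.15 for Gpt and -0.14 to 0.14 for Got1 in adult burn, from -0.05 to 0.22 for Slc38a2 in young burn, and in the interaction from -0.56 to 0.25 for Glul, -0.17 to 0.09 for Bcat2 and -0.05 to 0.07 for Bckdk.

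Other values that turned sign were as follows. With all 12 libraries in edgeR and DESeq2, they were 0.11 and 0.11 for Glul and 0.03 and 0.02 for Slc7a5 between the burn groups, -0.06 and -0.05 for Got2 and 0.13 and 0.15 for Slc7a5 in young burn, and 0.23 and 0.24 for Glul, -0.16 and -0.15 for Bckdk and 0.03 and 0.05 for Slc38a2 in the interaction. Gpt2 between the sham groups was -0.0019 with DESeq2 on 12 libraries, -0.12 by library size alone and -0.03 with no filter. Got1 in adult burn was -0.00011 by library size alone and -0.002 with the replicate block. Slc7a5 in young burn was 0.04 by library size alone and 0.10 with the block. In the interaction Bckdk was -0.01 with DESeq2, -0.004 with its size factors and -0.0035 with the block, and Bcat2 was 0.11 by library size alone. Depth limits Slc7a5 and Bckdha most, as they have the fewest counts.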
